A study of Mus musculus with 21 samples.

Results

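Transforming growth factor beta (TGF-beta) signalling was followed through 10 genes, listed in the count tables as TGFB1, TGFB2, TGFB3, TGFBR1, TGFBR2, TGFBR3, SMAD3, SMAD7, SKIL and TGFBI. They were taken by symbol from 24447 genes that the tables of all 3 fibroblast types list, and all 10 passed the filter on low counts in every comparison. Bulk RNA-seq covered 21 cultures of mouse fibroblasts in 7 groups of 3. The cells of every group were primary fibroblasts immortalised by HPV E6/E7 and grown in DMEM with serum. The WT MEF were mouse embryonic fibroblasts of C57BL/6 embryos collected between days 10 and 13, and the Prrx1 mutant MEF came from 129S-Prrx1tm1Jfm/Mmmh mice, whose Prrx1 carries LacZ in frame in exon 2, backcrossed to C57BL/6. The sgPrrx1 MEF were made with CRISPR and a guide RNA that targets Prrx1. WT and sgPrrx1 wound-healing fibroblasts came from C57BL/6 dorsal skin on day 10 after wounding. WT and sgPrrx1 MMTV-CAF, cancer-associated fibroblasts, came from mammary tumours of MMTV-PyMT mice, in which a mouse mammary tumour virus promoter drives the polyoma middle T antigen, on an FVB/NJ background. A guide named sgNS served as WT control of the CRISPR cells, and whether the WT MEF carried it is not given in the sources used here. Both MEF comparisons used the same 3 WT cultures. Fibroblast type, mouse strain and culture line cannot be told apart, and how many animals or clones stand behind a line is not given in the sources used here. The question was how far the machinery of TGF-beta signalling changed when Prrx1, a homeodomain transcription factor of mesenchymal cells, was lost, and whether it changed alike in the 3 types.

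TGF-beta ligands are secreted as latent dimers, held in the matrix until integrins or proteases release them. A released ligand binds the type II receptor, which phosphorylates the type I receptor, and the type III receptor, betaglycan, presents ligand to both. The type I receptor phosphorylates Smad2 and Smad3, which enter the nucleus with Smad4. Smad7 and the SnoN protein of Skil are known brakes on the pathway, and their own genes are induced by it. In fibroblasts the pathway is known for driving collagen synthesis and the contractile myofibroblast state, and Tgfbi, which encodes a secreted matrix protein, is named for its induction by TGF-beta.

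The upstream sequences of the type I and type II receptor genes and of Tgfbi are shown because the results below turn on these genes. Each is the run of 250 bases before the annotated start, from RefSeq on GRCm38.p6, the assembly behind mm10, written 5′ to 3′ on the strand of the gene. Tgfbr1 spans chr4:47353222-47414926 on the plus strand and its upstream run is chr4:47352972-47353221. Tgfbr2 spans chr9:116087695-116175363 on the minus strand and its upstream run is chr9:116175364-116175613. Tgfbi spans chr13:56609586-56639359 on the plus strand and its upstream run is chr13:56609336-56609585. Capitals mark matches, on either strand, to CAGAC, the short element that Smad3 and Smad4 bind.

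Tgfbr1: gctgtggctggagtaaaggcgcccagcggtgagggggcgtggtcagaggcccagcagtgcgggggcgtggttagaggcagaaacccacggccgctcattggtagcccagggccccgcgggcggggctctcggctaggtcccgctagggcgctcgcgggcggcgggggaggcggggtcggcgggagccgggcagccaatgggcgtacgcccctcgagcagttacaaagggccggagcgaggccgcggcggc

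Tgfbr2: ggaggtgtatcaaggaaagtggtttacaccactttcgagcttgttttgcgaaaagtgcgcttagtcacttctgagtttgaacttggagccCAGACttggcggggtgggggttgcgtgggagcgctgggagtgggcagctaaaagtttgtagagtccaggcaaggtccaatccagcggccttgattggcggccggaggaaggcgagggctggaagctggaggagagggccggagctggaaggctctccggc

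Tgfbi: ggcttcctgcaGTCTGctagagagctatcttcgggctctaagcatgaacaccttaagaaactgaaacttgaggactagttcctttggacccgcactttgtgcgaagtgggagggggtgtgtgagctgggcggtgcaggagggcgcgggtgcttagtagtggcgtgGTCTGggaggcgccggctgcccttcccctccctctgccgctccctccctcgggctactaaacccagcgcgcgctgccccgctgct

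The reference table held an upstream entry for 6 of the 10 genes. Runs at the annotated gene start were searched for 5 of them, Tgfbr1, Tgfbr2, Tgfbi, Tgfb1 and Smad3. Smad7 was not among these 5, so the matches below say nothing about it. CAGAC was matched 2 times in the Tgfbi run, starting 239 and 85 bases before the start, both on the opposite strand, where they read here as GTCTG. It was matched 1 time in the Tgfbr2 run, starting 160 bases before the start, and 0 times in the runs of Tgfbr1, Tgfb1 and Smad3. Of all 32851 upstream runs of this length in the table, 42.2% held CAGAC or its reverse complement. TAATTA, a core that homeodomain proteins bind, and TGANTCA, the AP-1 element, were searched likewise and had 0 matches in the 5 runs, against 4.84 and 6.75% of all runs. The Tgfbr1 run was rich in G and C, at 74.8%, against 58.4% in Tgfbr2 and 62.4% in Tgfbi. The Tgfb1 run was at 75.2% and that of Smad3 at 69.2%, and the median of all upstream runs was 52.4%.

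Each culture held 69588655 to 134790440 counts. Levels are given as CPM, counts divided by library size after one TMM scaling over all 21 cultures. Prrx1 was measured in every culture. It stood at 192, 166 and 184 CPM in WT MEF, 26.1, 20.7 and 19.9 CPM in Prrx1 mutant MEF and 126, 94.9 and 140.5 CPM in sgPrrx1 MEF. It fell from 146, 143 and 152 to 65.3, 64.2 and 65.1 CPM in wound-healing fibroblasts and from 627, 632 and 636 to 308, 309 and 301 CPM in MMTV-CAF. A guide can disrupt the protein without removing the transcript, so these levels give the direction of the label and no measure of protein. Between 8 and 10 of 11 fibroblast markers were above 1 CPM in every group, while Lum was at 0 in mutant MEF and sgPrrx1 wound-healing fibroblasts and Fap at 0 in mutant MEF and sgPrrx1 MMTV-CAF. The summed fibroblast markers differed with the loss groups, at 12700 to 13000 CPM in WT MEF against 5680 to 6960 in mutant and 9900 to 11700 in sgPrrx1 MEF, 9520 to 9580 in WT wound-healing fibroblasts against 3620 to 3650 after sgPrrx1, and 33200 to 33900 in WT MMTV-CAF against 16800 to 17000. In bulk samples fewer cells of a type and less RNA per cell cannot be told apart. Leukocyte markers summed to at most 9.64 CPM. Of 5 endothelial markers 1, Kdr, gave nearly all of a sum of 287 to 293 CPM in WT wound-healing fibroblasts and of 140 to 145 after sgPrrx1, with Pecam1 and Tie1 at 0 in both. Of 9 epithelial markers 1, Krt19, gave nearly all of 198 to 239 CPM in mutant MEF, with Epcam, Krt5, Krt14 and Csn3 at 0, against 17.8 to 20 in WT MEF and 24.5 to 28.6 in sgPrrx1 MEF. The same list stood at 52.1 to 54.2 CPM in WT MMTV-CAF and 0.204 to 0.339 after sgPrrx1, again through Krt19, with Epcam at 0 in both, and at 53.6 to 58 and 65.8 to 70.4 CPM in WT and sgPrrx1 wound-healing fibroblasts. The smooth muscle and pericyte list summed to 59.8 to 60.3 CPM in WT MMTV-CAF and 9.65 to 10.1 after sgPrrx1, and to 277 to 326 CPM in WT MEF, 119 to 157 in mutant MEF and 195 to 239 in sgPrrx1 MEF. In wound-healing fibroblasts it was 49.4 to 51.1 CPM in WT and 56.7 after sgPrrx1. The part of these lists in the results below was not tested.

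The mutant MEF also differed from the other MEF in genes that mark a line. Kdm5d, on the Y chromosome, was at 11.02 ± 0.612 CPM in WT MEF and 9.35 ± 0.547 CPM in sgPrrx1 MEF (SD, n = 3) but at 0 in 2 of 3 mutant MEF cultures and 0.0354 CPM in the other. Hoxa11, a positional homeobox gene, was at 33.9 ± 9.99 CPM in mutant MEF and at no more than 0.0460 CPM in any WT or sgPrrx1 MEF culture. In wound-healing fibroblasts Kdm5d was present in both groups, while Hoxa11 was at 0.271 ± 0.0222 CPM in WT and 6.15 ± 0.258 CPM after sgPrrx1. Both genes were at 0 in every MMTV-CAF culture. Kdm5d thus also separated this type from wound-healing fibroblasts and from WT and sgPrrx1 MEF. These 2 genes were chosen after their values had been seen. Mutation and line therefore cannot be told apart in the mutant MEF. Nor can sgPrrx1 and line in the wound-healing fibroblasts, where Hoxa11 differed as well. No library stood apart from its group over all genes, with 3.34 to 7.61% of 15093 genes more than 1.5-fold from the median of the group. Cultures of a group differed by more than counting noise, with chi-square per degree of freedom between 13.6 and 210, so none was counted as a repeat of another. The biological coefficient of variation was 16.9 and 15.3% in the mutant and sgPrrx1 MEF comparisons but 6.85 and 7.76% in those of wound-healing fibroblasts and MMTV-CAF. Nothing says that replicates were separate cultures from separate animals, so p-values measure only the spread between these samples, which may be technical.

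**Figure D1:**
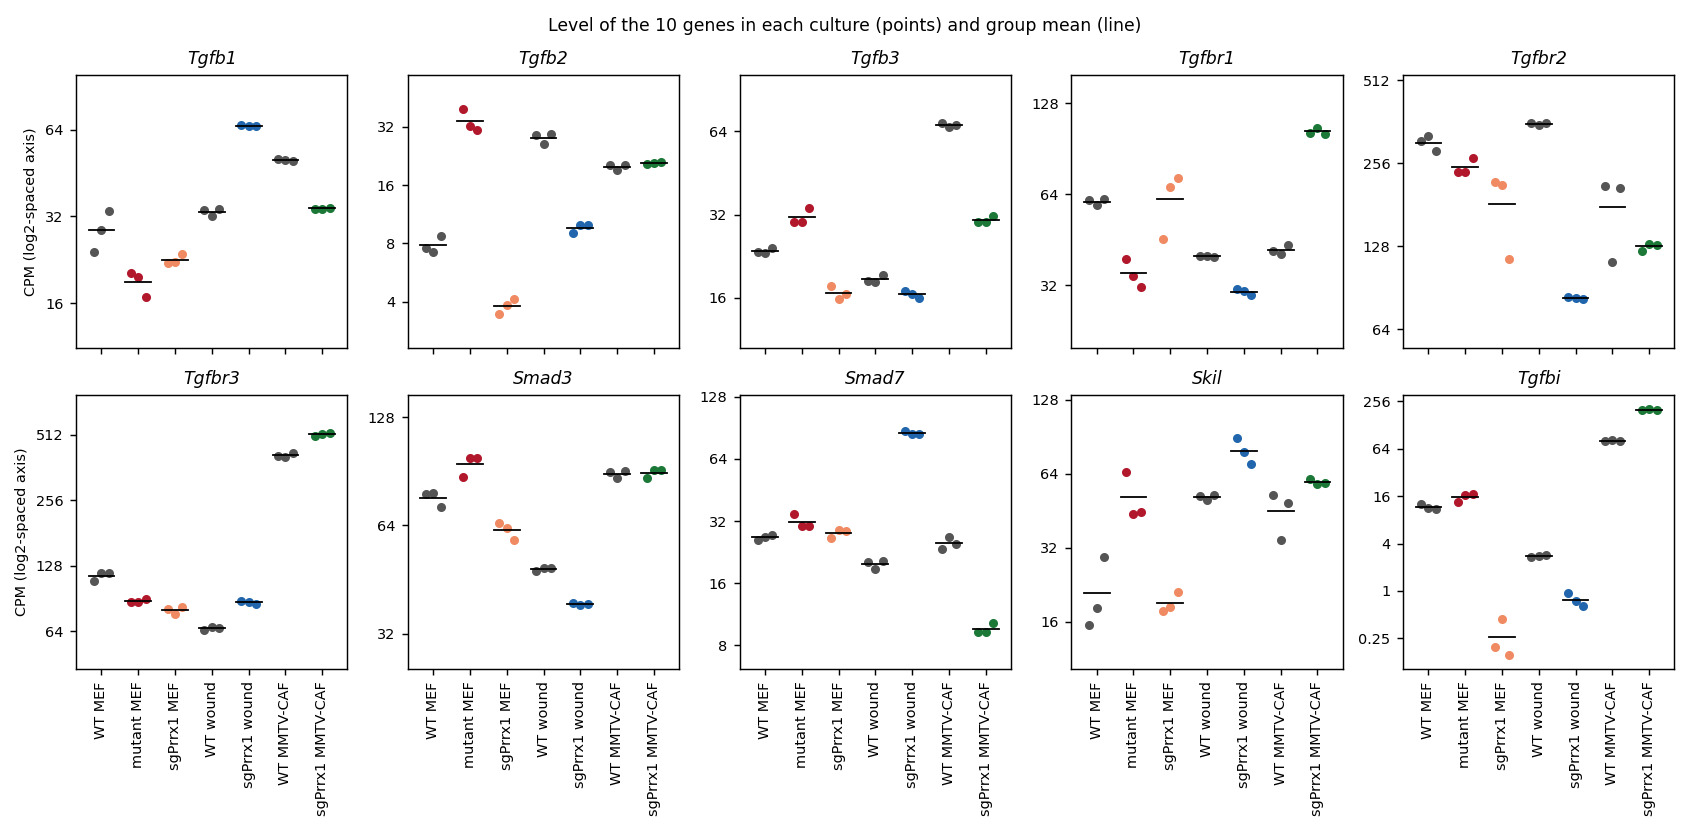
Level of the 10 genes in CPM (y axis, log2-spaced, its range set per panel) in the 7 groups (x axis). Points are cultures, lines are group means. WT cultures are grey, and an MMTV-CAF group is the highest in 4 of the 10 panels, those of Tgfb3, Tgfbr1, Tgfbr3 and Tgfbi.

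Among the ligands, Tgfb1 was called in all 4 comparisons and turned its direction between types. Tgfb1 encodes TGF-beta1, the ligand most often linked to fibrosis, and spans chr7:25687002-25705077. It stood at 33.7, 32.1 and 33.8 CPM in the 3 WT wound-healing cultures and 66.4, 66.2 and 66.1 CPM after sgPrrx1. All 3 sgPrrx1 cultures lay above all 3 WT cultures, a 1.99-fold higher level (log2 fold change 0.99 ± 0.027, adjusted p = 6.07e-09; values after ± are standard errors). In MMTV-CAF it fell from 50.5, 50.4 and 50.0 to 33.9, 34.0 and 34.3 CPM, 1.495-fold lower (-0.58 ± 0.021, adjusted p = 4.87e-08). In MEF the WT cultures were spread over 24.1, 28.7 and 33.4 CPM. The mutant MEF lay at 20.4, 19.7 and 16.7 CPM, below every WT culture (-0.62 ± 0.14, adjusted p = 0.00856). The sgPrrx1 MEF lay at 22.1, 22.2 and 23.6 CPM, just below the lowest WT culture (-0.36 ± 0.12, adjusted p = 0.0474). That last call was close to the threshold of 0.05 and was lost when any of 5 of the 6 cultures was left out, with adjusted p between 0.0820 and 0.135. Without WT MEF replicate 3 the log2 fold change was -0.24.

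Tgfb2 gave the largest gap between the 2 kinds of Prrx1 loss in MEF among the ligands. It encodes TGF-beta2, which binds the type II receptor poorly without betaglycan, and spans chr1:186622787-186709697. WT MEF held 7.59, 7.21 and 8.77 CPM. Mutant MEF held 39.7, 32.4 and 30.6 CPM, 4.29-fold higher (2.10 ± 0.14, adjusted p = 3.31e-05). The sgPrrx1 MEF held 3.46, 3.83 and 4.14 CPM, 2.08-fold lower (-1.06 ± 0.12, adjusted p = 0.000833). The 3 MEF groups did not overlap, and the mutant was the highest of all 7 groups while the sgPrrx1 MEF were the lowest. In wound-healing fibroblasts Tgfb2 fell from 28.9, 26.1 and 29.2 to 9.04, 9.95 and 9.99 CPM, 2.92-fold lower (-1.55 ± 0.057, adjusted p = 3.5e-08). In MMTV-CAF it stood at 20.2, 19.2 and 20.4 CPM in WT and 20.6, 20.7 and 21.1 CPM in sgPrrx1 cultures. These groups lay side by side without overlap, but the difference did not pass (0.04 ± 0.033, adjusted p = 0.274), and its 95% interval was -0.02 to 0.10. Intervals here and below are not adjusted for the number of genes. They rest on a normal quantile and are narrower than the test itself allows with so few cultures. With library totals alone in place of TMM the small rise of Tgfb2 in MMTV-CAF passed, at 0.17.

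Tgfb3 fell in all 3 sgPrrx1 comparisons and rose in the mutant MEF. It encodes TGF-beta3, known from palate fusion and fetal skin repair, and spans chr12:86056743-86079041. The largest fall was in MMTV-CAF, from 68.4, 66.3 and 67.5 to 30.2, 30.1 and 31.7 CPM, 2.23-fold lower (-1.15 ± 0.027, adjusted p = 5.04e-09). In MEF it moved from 23.5, 23.3 and 24.3 CPM in WT to 17.7, 15.8 and 16.5 CPM in sgPrrx1 cultures (-0.52 ± 0.073, adjusted p = 0.0017). The mutant cultures held 30.0, 30.1 and 33.8 CPM (0.38 ± 0.083, adjusted p = 0.00679). Loss and WT groups did not overlap in any of these comparisons. The change in wound-healing fibroblasts was small, from 18.4, 18.3 and 19.4 to 17.0, 16.5 and 16.0 CPM (-0.19 ± 0.038, adjusted p = 0.00188), and with library totals alone it was -0.07 and did not pass.

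Of the receptor genes, Tgfbr1 rose in MMTV-CAF, and Tgfbr1 and Tgfbr2 both fell in wound-healing fibroblasts. Tgfbr1 encodes the type I receptor, the kinase that phosphorylates Smad2 and Smad3. In MMTV-CAF it rose from 41.7, 40.5 and 43.5 to 102, 106 and 102 CPM, 2.43-fold higher (1.28 ± 0.032, adjusted p = 7.82e-09). In wound-healing fibroblasts it fell from 39.9, 40.1 and 39.6 to 31.0, 30.6 and 29.7 CPM (-0.39 ± 0.026, adjusted p = 1.42e-06). Both pairs of groups were far apart relative to the spread within them. WT MEF lay at 61.1, 58.8 and 61.6 CPM and mutant MEF lower, at 39.0, 34.3 and 31.7 CPM (-0.81 ± 0.10, adjusted p = 0.000543). The sgPrrx1 MEF scattered on both sides of WT, at 45.4, 67.7 and 72.6 CPM. No difference was detected there (0.02 ± 0.17, adjusted p = 0.929), and the 95% interval of -0.30 to 0.35 leaves room for a change in either direction. Its sign turned without sgPrrx1 MEF replicate 2 or 3.

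Tgfbr2 encodes the type II receptor, the ligand-binding kinase without which the complex does not signal. Its fall in wound-healing fibroblasts was the largest change among Tgfbr1, Tgfbr2 and Tgfbr3. WT cultures held 357, 352 and 358 CPM and sgPrrx1 cultures 83.6, 83.2 and 82.1 CPM, 4.30-fold lower (-2.10 ± 0.018, adjusted p = 2.11e-11). The WT cultures were the highest of all 7 groups and the sgPrrx1 cultures the lowest. In MEF, WT held 307, 320.1 and 284 CPM, mutant 239, 238 and 268 CPM (-0.32 ± 0.086, adjusted p = 0.0161) and sgPrrx1 218, 214 and 115 CPM (-0.75 ± 0.23, adjusted p = 0.0345). Replicate 3 of the sgPrrx1 MEF stood apart from its group, and without it the log2 fold change was -0.50 with adjusted p = 0.00605. The sgPrrx1 call was lost without WT MEF replicate 1 or 2, at adjusted p = 0.0825 and 0.0908. The mutant call was lost without WT MEF replicate 1, WT MEF replicate 2 or mutant replicate 2, at adjusted p = 0.0512 to 0.0787. It was also lost in models of all 9 MEF and all 21 cultures, at 0.216 and 0.213. In MMTV-CAF, WT held 212, 112 and 209 CPM and sgPrrx1 124, 131 and 129.7 CPM, so that WT replicate 2 lay below every sgPrrx1 culture. The difference did not pass (-0.49 ± 0.21, adjusted p = 0.0606). Without that 1 culture it was -0.74 with adjusted p = 4.23e-07.

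Tgfbr3 encodes betaglycan, which can be shed from the cell and then traps ligand. It spans chr5:107106567-107289629. It fell in both MEF comparisons and rose in both others, always by less than 2-fold. In MEF it moved from 109.5, 118 and 118 CPM in WT to 87.5, 87.4 and 90.0 CPM in mutant (-0.41 ± 0.070, adjusted p = 0.00231) and 81.5, 77.2 and 82.9 CPM in sgPrrx1 cultures (-0.53 ± 0.067, adjusted p = 0.00111). In wound-healing fibroblasts it rose from 64.8, 67.1 and 66.7 to 88.6, 87.3 and 85.6 CPM (0.39 ± 0.024, adjusted p = 8.31e-07). In MMTV-CAF it rose from 408, 406 and 422 to 505, 517 and 518 CPM (0.30 ± 0.019, adjusted p = 1.53e-06). The 6 MMTV-CAF cultures lay far above the 15 others, the highest of which held 118 CPM.

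**Figure D2:**
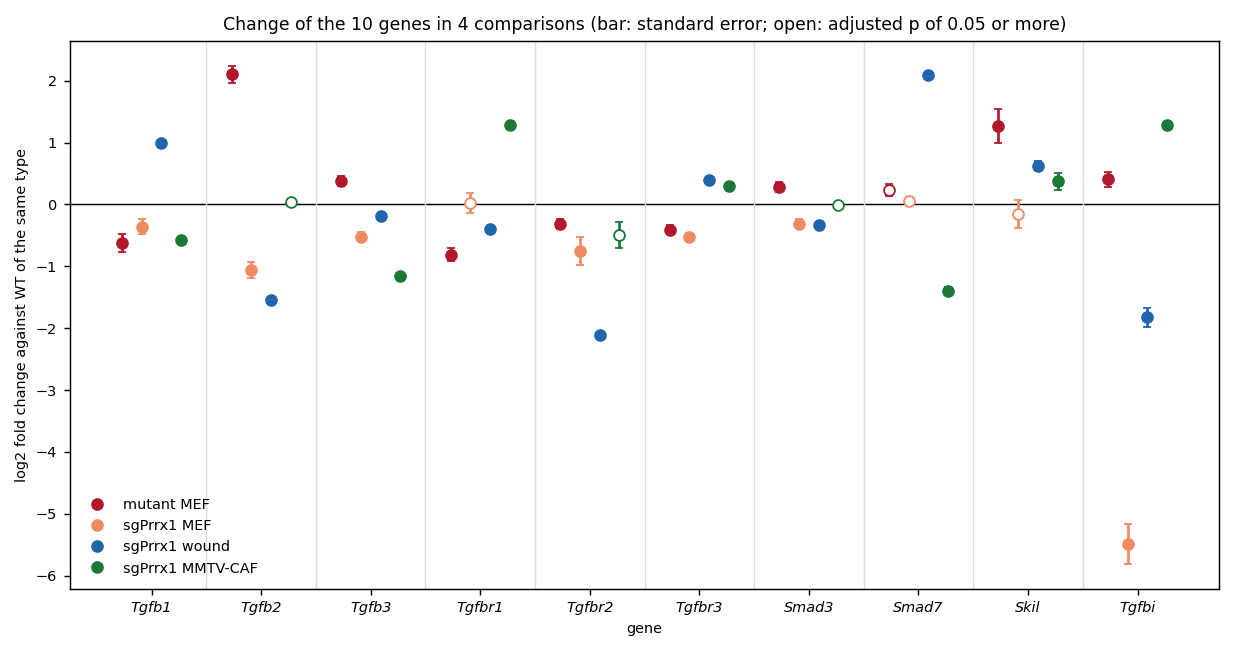
Log2 fold change against WT of the same fibroblast type (y axis) for the 10 genes (x axis), with standard errors, in the 4 comparisons named in the legend. Filled points had an adjusted p under 0.05, and 7 points are open. Tgfbi in sgPrrx1 MEF lies lowest, at -5.48.

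Smad3, the receptor-activated Smad of the pathway, spans chr9:63646766-63757994, and its changes were small. Its largest change was in sgPrrx1 wound-healing fibroblasts, from 47.9, 48.6 and 48.9 to 38.9, 38.4 and 38.8 CPM (-0.33 ± 0.024, adjusted p = 2.22e-06). In MEF it stood at 78.3, 78.7 and 72.2 CPM in WT, 65.0, 62.9 and 58.3 CPM in sgPrrx1 (-0.31 ± 0.073, adjusted p = 0.0131) and 87.5, 98.4 and 98.4 CPM in mutant cultures (0.29 ± 0.080, adjusted p = 0.0178). The 2 kinds of loss lay on opposite sides of WT. The mutant call was lost without WT MEF replicate 2, WT MEF replicate 3 or mutant replicate 2, at adjusted p = 0.0530 to 0.0770. The sgPrrx1 call was lost without WT MEF replicate 2 or sgPrrx1 replicate 2, at 0.0615 and 0.0545. In MMTV-CAF WT held 90.1, 86.8 and 90.6 CPM and sgPrrx1 86.7, 91.2 and 91.6 CPM. The ranges overlapped and no change was detected (-0.01 ± 0.028, adjusted p = 0.793), with a 95% interval of -0.06 to 0.05. With library totals alone the value was 0.13 and passed, at adjusted p = 0.00261.

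Smad7, the inhibitory Smad that brings ubiquitin ligases to the type I receptor, gave opposite changes in the 2 adult cell types. In wound-healing fibroblasts it rose from 20.2, 18.7 and 20.6 to 86.9, 84.3 and 84.8 CPM, 4.29-fold higher (2.10 ± 0.038, adjusted p = 6.43e-10). In MMTV-CAF it fell from 23.5, 26.8 and 24.8 to 9.32, 9.27 and 10.3 CPM, 2.63-fold lower (-1.40 ± 0.063, adjusted p = 1.96e-07). The sgPrrx1 wound-healing cultures were the highest and the sgPrrx1 MMTV-CAF the lowest of the 7 groups, while the 3 WT groups lay between 18.7 and 27.5 CPM. MEF moved little. WT held 26.0, 26.8 and 27.5 CPM, sgPrrx1 26.6, 29.1 and 28.5 CPM (0.06 ± 0.069, adjusted p = 0.521) and mutant 34.8, 30.2 and 30.3 CPM (0.23 ± 0.096, adjusted p = 0.0758). The mutant cultures lay above WT without overlap, and the call was made with library totals alone and in the models of all 9 MEF and all 21 cultures, at adjusted p = 0.00239 to 0.0443. The 95% interval in sgPrrx1 MEF was -0.08 to 0.19.

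Skil encodes SnoN, a co-repressor that binds Smad complexes on DNA, and spans chr3:31095058-31122923. It was the only one of the 10 genes called higher in 3 comparisons and lower in 0. In mutant MEF it stood at 65.4, 44.1 and 44.95 CPM against 15.5, 18.2 and 29.4 CPM in WT, 2.41-fold higher (1.27 ± 0.27, adjusted p = 0.00606). Both groups were wide, and WT replicate 3 was nearest to the mutant cultures. In wound-healing fibroblasts it rose from 51.9, 49.9 and 52.4 to 89.3, 78.5 and 70.4 CPM (0.62 ± 0.073, adjusted p = 5.54e-05). In MMTV-CAF it moved from 52.3, 34.6 and 48.8 to 61.3, 58.1 and 58.8 CPM (0.37 ± 0.13, adjusted p = 0.0299). WT replicate 2 was the lowest culture, and without it the value was 0.21 with adjusted p = 0.00338. The call was lost without any 1 of the 3 sgPrrx1 cultures, at adjusted p = 0.0578 to 0.0773, and in the model of all 21 cultures, at 0.0895. The sgPrrx1 MEF, at 17.8, 18.4 and 21.1 CPM, overlapped WT (-0.15 ± 0.23, adjusted p = 0.606), with a 95% interval of -0.60 to 0.29, and the sign turned to 0.16 without WT MEF replicate 3.

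Tgfbi, the target gene of the list, had the widest range of all, with a 761-fold ratio of the highest to the lowest group mean. In sgPrrx1 MEF it stood at 0.192, 0.443 and 0.155 CPM, which rest on 13, 30 and 12 counts. WT MEF held 12.6, 11.3 and 10.96 CPM, and the level was 44.7-fold lower (-5.48 ± 0.32, adjusted p = 4.44e-05). Mutant MEF, by contrast, lay above every WT culture, at 13.4, 16.3 and 17.3 CPM (0.41 ± 0.12, adjusted p = 0.0209). That small rise was lost without WT MEF replicate 2 or 3 or mutant replicate 2 or 3, at adjusted p = 0.0562 to 0.0733, and in the model of all 9 MEF, at 0.126. In wound-healing fibroblasts the level was low throughout and fell from 2.67, 2.77 and 2.83 to 0.939, 0.741 and 0.652 CPM, 3.53-fold lower (-1.82 ± 0.16, adjusted p = 6.79e-06). In MMTV-CAF it was high and rose from 81.4, 81.8 and 80.9 to 198, 205 and 198 CPM, 2.43-fold higher (1.28 ± 0.020, adjusted p = 6.27e-10).

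Counted over the 10 genes, 33 of 40 differences from WT passed the threshold, 0 of the 10 were called in the same direction in all 4 comparisons, and 8 were called in opposite directions in different ones. In mutant MEF 4 were lower and 5 higher, where 59.9% of all 13616 genes tested were called, 30.5% lower and 29.4% higher. In sgPrrx1 MEF 7 were lower and 0 higher, against 43.1% of 13372 genes, 22.8% lower and 20.3% higher. In sgPrrx1 wound-healing fibroblasts 6 were lower and 4 higher, against 77.6% of 13939, 39.3% lower and 38.3% higher. In sgPrrx1 MMTV-CAF 3 were lower and 4 higher, against 83.1% of 13903, 41.9% lower and 41.2% higher. With this much of the transcriptome called, the share of the 10 genes that passed is not a result about them. The median change of the 10 was 0.26 in mutant MEF, -0.44 in sgPrrx1 MEF, -0.26 in the wound-healing comparison and 0.02 in that of MMTV-CAF, beside medians over all genes of 0.0094, 0.0017, 0.0044 and -0.0032. The median size of change, without its sign, was 0.41 in mutant MEF against 0.52 over all genes, 0.44 against 0.32 in sgPrrx1 MEF, 0.81 against 0.37 in the wound-healing comparison and 0.54 against 0.49 in that of MMTV-CAF. With library totals alone the median of all genes moved to 0.12 and 0.13 in these 2 comparisons, and the share of calls that were higher went from 49.3 to 60.3% and from 49.6 to 58.5%. Under that shift the genes of the 10 called in these comparisons kept their direction, but Tgfb3 in wound-healing fibroblasts lost its call, at -0.07. In MMTV-CAF Tgfb2 and Smad3 were then called higher, at 0.17 and 0.13, and Smad3 had turned its sign.

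The change after sgPrrx1 differed between the 3 types for all 10 genes by the test of the difference itself, where 80.1% of all 14972 genes did. Between wound-healing fibroblasts and MEF 9 of the 10 differed, against 60.3% of genes, between MMTV-CAF and MEF 7, against 60.7%, and between MMTV-CAF and wound-healing fibroblasts 8, against 66.5%. Tgfbi gave the largest difference, 6.79 ± 0.22 on the log2 scale for MMTV-CAF minus MEF (adjusted p = 3.47e-13). Smad7 followed, with -3.44 ± 0.082 for MMTV-CAF minus wound-healing fibroblasts (adjusted p = 8.93e-15). The receptors differed by 1.73 ± 0.15 for Tgfbr1 (adjusted p = 5.62e-08) and 1.66 ± 0.31 for Tgfbr2 (adjusted p = 0.000173) in the same pair. Without WT MMTV-CAF replicate 2 the value of Tgfbr2 was 1.42 and still passed. Tgfbr3 did not pass between these types (-0.04 ± 0.051, adjusted p = 0.514), with a 95% interval of -0.14 to 0.06, and its change in each differed from MEF by 0.89 ± 0.052 and 0.85 ± 0.051. The ligands Tgfb1 and Tgfb2 differed in opposite senses, by -1.52 ± 0.10 and 1.64 ± 0.10 for MMTV-CAF minus wound-healing fibroblasts.

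**Figure D3:**
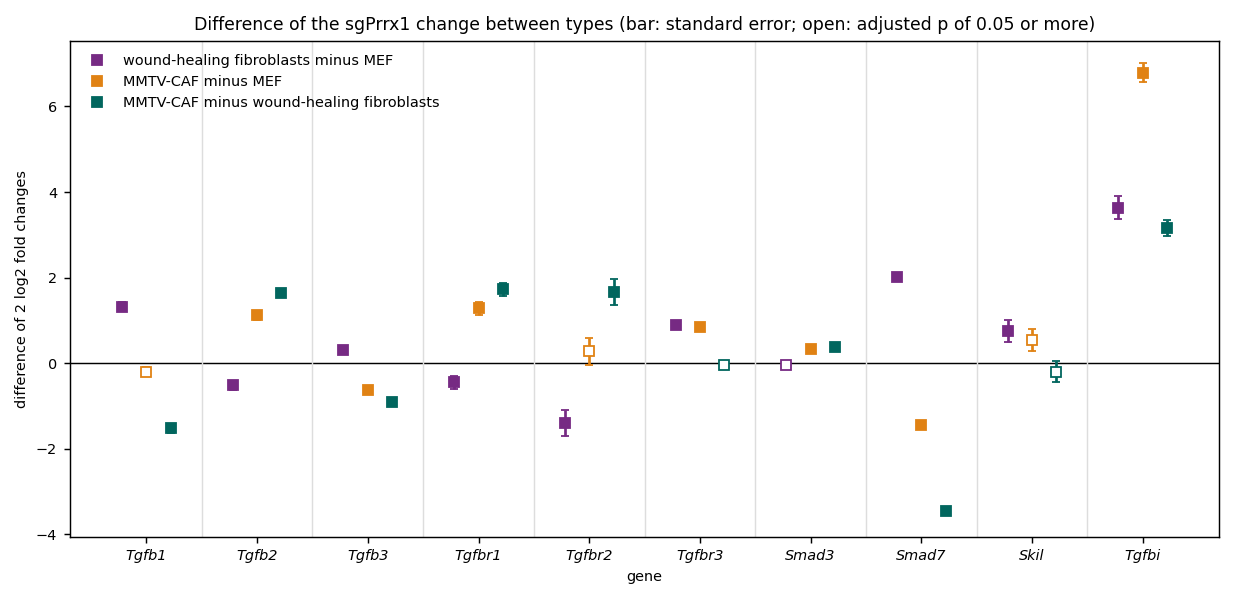
Difference of 2 log2 fold changes after sgPrrx1 (y axis) for the 10 genes (x axis) and the 3 pairs of fibroblast types in the legend, with standard errors. Filled squares had an adjusted p under 0.05. Tgfbi lies highest, at 6.79, and Smad7 lowest, at -3.44.

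The 2 kinds of loss in MEF were compared directly, since both share their WT cultures. Between sgPrrx1 and mutant MEF 5 of the 10 genes were lower in sgPrrx1 cultures and 1 higher, where 56.2% of 13379 genes differed. Tgfbi was 59.5-fold lower in sgPrrx1 MEF (-5.90 ± 0.33, adjusted p = 1.98e-05) and Tgfb2 8.95-fold lower (-3.16 ± 0.14, adjusted p = 8.2e-06). Skil (-1.43 ± 0.18, adjusted p = 0.000674), Tgfb3 (-0.90 ± 0.081, adjusted p = 0.000151) and Smad3 (-0.60 ± 0.076, adjusted p = 0.000718) were lower too, and Tgfbr1 was higher (0.83 ± 0.18, adjusted p = 0.00863). Tgfb1 did not pass (0.26 ± 0.097, adjusted p = 0.0568) but did with DESeq2 and with RLE scaling, at adjusted p = 0.0246 and 0.0449, and without mutant replicate 1, at 0.0352. Tgfbr2, Tgfbr3 and Smad7 did not pass, with 95% intervals of -0.91 to 0.04, -0.24 to -0.02 and -0.34 to -0.0018. The intervals of Tgfbr3 and Smad7 lie entirely on the negative side because they are too narrow. Their quasi-likelihood p before adjustment was 0.0638 and 0.0912, so these intervals are no sign of a difference. With library totals alone Tgfbr3 passed, at -0.23 with adjusted p = 0.0251.

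The WT cultures of the 3 types already differed. Of the 10 genes, 9 differed between wound-healing fibroblasts and MEF, 9 between MMTV-CAF and MEF and 8 between MMTV-CAF and wound-healing fibroblasts, where 80.3, 79.2 and 80.4% of 14380 genes did. MMTV-CAF held the most Tgfbi, 28.0-fold higher than wound-healing fibroblasts (4.81 ± 0.066, adjusted p = 1.01e-10). They also held the most Tgfbr3, 5.90-fold higher (2.56 ± 0.043, adjusted p = 1.93e-10), and Tgfb3, 3.41-fold higher (1.77 ± 0.040, adjusted p = 8.08e-10). Wound-healing fibroblasts held the most Tgfb2, 3.65-fold higher than MEF (1.87 ± 0.080, adjusted p = 3.65e-08). MEF held the most Tgfbr1, which did not pass between the other 2 types (-0.01 ± 0.038, adjusted p = 0.893). MMTV-CAF held the least Tgfbr2, 2.11-fold lower than wound-healing fibroblasts (-1.08 ± 0.20, adjusted p = 0.000896). Without WT MMTV-CAF replicate 2, which stood apart for this gene, the value was -0.82 and still passed. The rise of Tgfb1 from MEF to wound-healing fibroblasts, at adjusted p = 0.0417, was lost under 10 alternatives.

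The order of the 7 group means followed type for some genes, and no gene had its loss groups all above or all below the WT groups. For Tgfbr3 and Tgfbi both MMTV-CAF groups were highest. Tgfbr3 in mutant MEF, at 88.3 ± 1.497 CPM (SD, n = 3), and in sgPrrx1 wound-healing fibroblasts, at 87.2 ± 1.51 CPM, overlapped, while all other neighbours in its order did not. For Tgfbi no neighbours overlapped. Smad3 spanned the least, with a 2.45-fold ratio of highest to lowest mean, and its upper 3 groups, mutant MEF and both MMTV-CAF, overlapped in sequence. The ratio was 8.99 for Tgfb2, 8.85 for Smad7 and 7.76 for Tgfbr3. In the middle of the Smad7 order sgPrrx1 MEF, WT MEF and WT MMTV-CAF overlapped, as did sgPrrx1 MMTV-CAF, mutant MEF, WT wound-healing fibroblasts and WT MMTV-CAF in that of Skil.

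Levels of different genes were compared only per length, as RPKM, which divides CPM by kilobases of exon. Exon lengths came from Gencode M1 on NCBIM37, an older annotation than the mm10 build of the counts, so the shares are approximate. The 3 ligand genes summed to 19.9 ± 2.07 RPKM (SD, n = 3) in WT MEF, 23.7 ± 1.16 RPKM in mutant MEF and 14.6 ± 0.395 RPKM in sgPrrx1 MEF. The sum went from 24.3 ± 0.845 RPKM to 32.8 ± 0.0929 RPKM in wound-healing fibroblasts and from 43.7 ± 0.460 RPKM to 26.7 ± 0.407 RPKM in MMTV-CAF. The summed ligand level was higher after sgPrrx1 in the first and lower in the second, and the make-up differed as well. Tgfb1 made up 53.4 ± 0.447% of it in WT and 79.0 ± 0.160% in sgPrrx1 wound-healing fibroblasts, where Tgfb2 went from 23.8 ± 0.658% to 6.09 ± 0.352%. In mutant MEF the 3 ligands were near even, with Tgfb1 at 31.2 ± 2.28%, Tgfb2 at 29.7 ± 2.66% and Tgfb3 at 39.1 ± 4.21%, while in WT MEF Tgfb2 was 8.18 ± 0.567%. In MMTV-CAF Tgfb1 and Tgfb3 were level in WT, at 45 ± 0.473% and 45.6 ± 0.266%, and Tgfb3 stood at 34.0 ± 0.492% after sgPrrx1.

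The 3 receptor genes summed to 60.2 ± 0.258 RPKM in WT and 28.2 ± 0.430 RPKM in sgPrrx1 wound-healing fibroblasts. Tgfbr2 made up 73.1 ± 0.357% of the sum in WT and 36.3 ± 0.215% after sgPrrx1, when Tgfbr3, at 47.2 ± 0.108%, came first. In MMTV-CAF the sum was 91.3 ± 8.02 RPKM in WT and 110.1 ± 1.82 RPKM after sgPrrx1, and Tgfbr3 led both, at 69.2 ± 5.48% and 71.3 ± 0.316%. Tgfbr1 and Tgfbr2 were level in sgPrrx1 MMTV-CAF, at 14.4 ± 0.283% and 14.4 ± 0.197%, whereas Tgfbr2 stood at 23.7 ± 5.91% and Tgfbr1 at 7.04 ± 0.438% in WT. In MEF the sum went from 64.4 ± 2.06 RPKM in WT to 49.5 ± 1.959 RPKM in mutant and 44.3 ± 5.58 RPKM in sgPrrx1 cultures, with Tgfbr2 first in all 3. These shares were given no test, because an exact permutation test of 3 against 3 cannot go below p = 0.1.

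**Figure D4:**
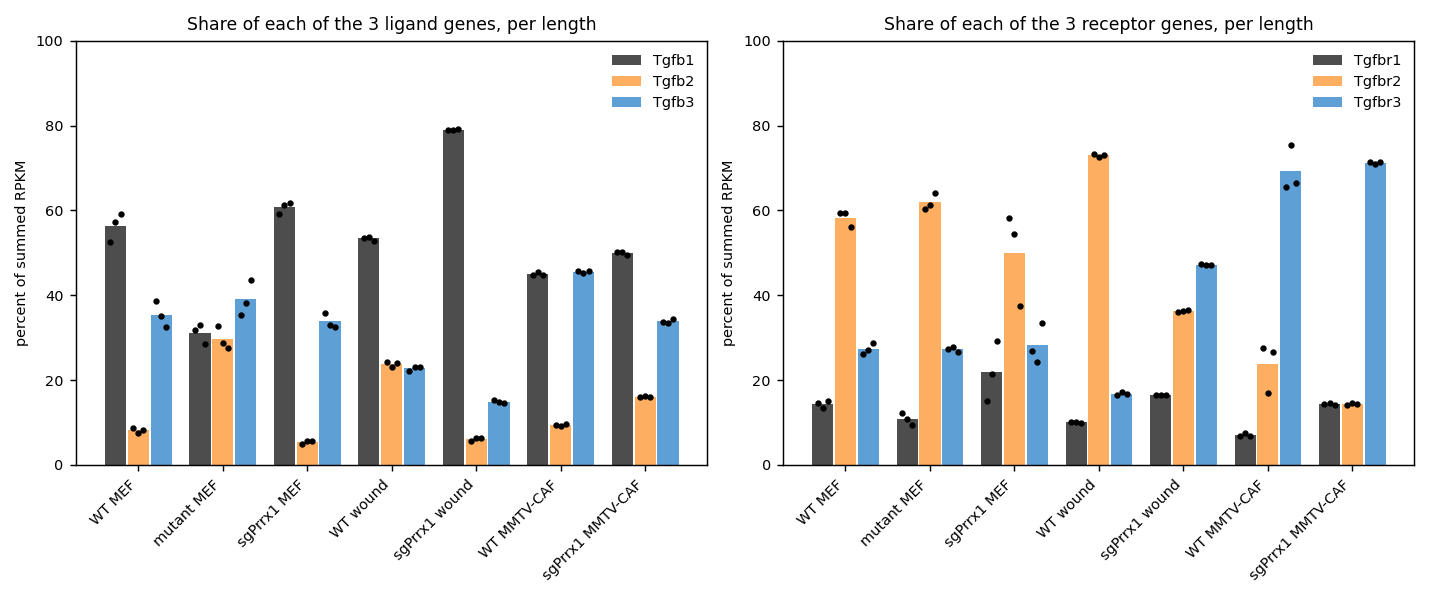
Share of each ligand gene (left) and receptor gene (right) in the summed RPKM of its 3 genes (y axis, percent) in the 7 groups (x axis). Bars are means of 3 cultures and points are the cultures. Tgfb1 reaches 79.0% in sgPrrx1 wound-healing fibroblasts and Tgfbr2 73.1% in WT wound-healing fibroblasts.

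Beyond the 10 genes, 95 genes of the pathway were followed in 6 lists, and each list is described by its counts beside the background percentages above. Known targets of TGF-beta were mostly lower in sgPrrx1 MEF and MMTV-CAF and more mixed in wound-healing fibroblasts. Of 18 target genes 13 were lower and 2 higher in sgPrrx1 MEF, 11 and 7 in the wound-healing comparison, 14 and 4 in MMTV-CAF, and 7 and 7 in mutant MEF. Of all genes 22.8, 39.3, 41.9 and 30.5% were lower and 20.3, 38.3, 41.2 and 29.4% higher in that order. Tgfbi, Smad7 and Skil, also induced by TGF-beta, stand outside this list. In sgPrrx1 wound-healing fibroblasts Smad7 and Skil were higher and Tgfbi lower. In MMTV-CAF Tgfbi and Skil were higher and Smad7 lower, and in sgPrrx1 MEF only Tgfbi passed, as lower. The median log2 fold change of the target list was -0.84, -0.47, -1.39 and 0.12 in the same order. Postn, the matrix protein periostin, gave the largest fall in 3 of the 4 comparisons. It fell from 305, 321 and 293 CPM in WT MEF to 9.75, 8.38 and 8.39 CPM in mutant (-5.14 ± 0.11, adjusted p = 1.17e-06) and 74.3, 71.9 and 73.2 CPM in sgPrrx1 MEF (-2.08 ± 0.065, adjusted p = 5.55e-06). In wound-healing fibroblasts it fell from 101, 102 and 105 to 15.5, 14.9 and 14.9 CPM (-2.77 ± 0.028, adjusted p = 4.25e-11). In MMTV-CAF the largest fall was that of Tagln, a smooth-muscle actin-binding protein, from 438, 432 and 429 to 1.54, 1.23 and 1.07 CPM (-8.42 ± 0.12, adjusted p = 3.92e-10), and Junb, an AP-1 subunit, gave the largest rise (1.23 ± 0.051, adjusted p = 1.21e-07). Id3 rose most in mutant MEF (1.61 ± 0.11, adjusted p = 3.52e-05), Id1 in sgPrrx1 wound-healing fibroblasts (1.81 ± 0.025, adjusted p = 1.61e-10) and Tsc22d1 in sgPrrx1 MEF (0.54 ± 0.16, adjusted p = 0.0331). Id1 and Id3 encode inhibitors of helix-loop-helix factors and are known above all as targets of the BMP branch. The summed fibroblast markers were lower in each of these loss groups too. Col1a1 and Col3a1 stand in both that marker list and the target list, so the 2 lists are not independent. The smooth muscle and pericyte list was lower in MEF and MMTV-CAF but higher in wound-healing fibroblasts.

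Genes that keep TGF-beta latent or release it were mostly lower in MMTV-CAF and MEF after sgPrrx1. In MMTV-CAF 12 lower and 1 higher of 15 tested were called, in sgPrrx1 MEF 9 lower and 0 higher of 15, in wound-healing fibroblasts 9 lower and 6 higher of 17 and in mutant MEF 6 lower and 6 higher of 16, with medians of -0.60, -0.57, -0.09 and -0.03. Lrrc32 encodes GARP, which tethers latent TGF-beta to the cell surface. It fell from 606, 622 and 624 to 129, 129.7 and 129 CPM in MMTV-CAF (-2.28 ± 0.018, adjusted p = 3.95e-11) and from 49.5, 50.2 and 50.7 to 8.32, 9.73 and 8.65 CPM in wound-healing fibroblasts (-2.50 ± 0.054, adjusted p = 1.69e-09). Ltbp2, a latent TGF-beta binding protein family member of elastic fibres, fell from 242, 229.9 and 206 to 3.14, 3.39 and 3.99 CPM in mutant MEF (-6.04 ± 0.13, adjusted p = 1.17e-06) and rose from 45.3, 46.6 and 48.2 to 168, 167 and 169.6 CPM in wound-healing fibroblasts (1.84 ± 0.026, adjusted p = 1.84e-10). Emilin1, which holds back the processing of the TGF-beta1 precursor, fell from 144, 152 and 169 to 61.4, 63.0 and 57.9 CPM in sgPrrx1 MEF (-1.36 ± 0.081, adjusted p = 4.56e-05). Ltbp1, the binding protein that anchors the latent complex in the matrix, gave the only rise in MMTV-CAF (0.23 ± 0.022, adjusted p = 1.87e-05). Nrros, a GARP-related tether of myeloid cells, gave the largest rise in mutant MEF, but from 0.116, 0 and 0 to 1.75, 1.75 and 1.54 CPM.

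Among other receptors of the family, Acvrl1, a type I receptor best known in endothelium, gave the largest fall in both MEF comparisons, from 2.05, 1.90 and 1.86 CPM in WT to 0, 0 and 0.117 CPM in mutant (-5.73 ± 0.81, adjusted p = 0.000928) and 0.532, 0.325 and 0.310 CPM in sgPrrx1 cultures (-2.33 ± 0.25, adjusted p = 0.000569). Acvr2b, an activin type II receptor, gave the largest rise both in wound-healing fibroblasts (1.57 ± 0.17, adjusted p = 3.43e-05) and MMTV-CAF (2.67 ± 0.10, adjusted p = 7.4e-08). Bambi, a receptor that lacks the kinase, rose in sgPrrx1 MEF (0.60 ± 0.15, adjusted p = 0.0168) and fell in wound-healing fibroblasts (-0.70 ± 0.044, adjusted p = 9.27e-07). Bmpr2, the BMP type II receptor, gave the largest rise in mutant MEF (0.47 ± 0.093, adjusted p = 0.00417). Bmpr1b, a BMP type I receptor, stood at 1.62, 1.86 and 1.32 CPM in WT MMTV-CAF and at 0, 0.0296 and 0 CPM after sgPrrx1 (-7.06 ± 0.52, adjusted p = 4.06e-06). The list counted 5 lower and 2 higher of 10 in mutant MEF, 5 lower and 3 higher of 10 in sgPrrx1 MEF, 4 lower and 5 higher of 10 in wound-healing fibroblasts and 6 lower and 4 higher of 10 in MMTV-CAF. Its medians were -0.39, -0.22, 0.20 and -0.52.

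The other Smads and their partners counted 3 lower and 4 higher of 13 in mutant MEF and 2 lower and 4 higher of 13 in sgPrrx1 MEF. They counted 3 lower and 7 higher of 13 in wound-healing fibroblasts and 8 lower and 5 higher of 13 in MMTV-CAF. Of all genes tested, 59.9, 43.1, 77.6 and 83.1% were called in that order. The medians of the list were 0.04, 0.16, 0.17 and -0.17. Smad9, a BMP-pathway Smad, rose from 1.18, 1.16 and 1.11 to 10.0, 10.7 and 10.8 CPM in wound-healing fibroblasts (3.18 ± 0.076, adjusted p = 2.75e-09) and fell in sgPrrx1 MEF (-0.54 ± 0.10, adjusted p = 0.00575). Smad5, of the same branch, rose in mutant MEF (0.88 ± 0.13, adjusted p = 0.00132) and fell in wound-healing fibroblasts (-0.32 ± 0.040, adjusted p = 8.51e-05). Smad2, the partner of Smad3, gave the largest rise in sgPrrx1 MEF (0.66 ± 0.13, adjusted p = 0.00597). Tgfb1i1, the focal adhesion protein Hic-5, fell in MMTV-CAF from 131, 134.9 and 132 to 18.8, 17.9 and 18.02 CPM (-2.88 ± 0.031, adjusted p = 1.27e-10) and in mutant MEF (-1.46 ± 0.089, adjusted p = 2.01e-05). Dab2, an adaptor between receptors and Smads, gave the largest rise in MMTV-CAF (0.97 ± 0.020, adjusted p = 2.5e-09).

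Other inhibitors and co-repressors counted 4 lower and 5 higher of 12 in mutant MEF, 4 lower and 3 higher of 12 in sgPrrx1 MEF, 3 lower and 7 higher of 12 in wound-healing fibroblasts and 9 lower and 3 higher of 12 in MMTV-CAF, with medians of -0.20, -0.04, 0.33 and -0.28. Smad6, the second inhibitory Smad, rose beside Smad7 in wound-healing fibroblasts, from 4.42, 4.46 and 3.96 to 13.9, 13.0 and 12.7 CPM (1.62 ± 0.066, adjusted p = 6.2e-08). Pmepa1, a membrane protein that sequesters Smads and is itself induced by TGF-beta, fell beside Smad7 in MMTV-CAF, from 213, 233 and 221 to 70.2, 67.1 and 64.9 CPM (-1.74 ± 0.043, adjusted p = 7.26e-09), and fell in sgPrrx1 MEF (-1.44 ± 0.12, adjusted p = 0.000224), where Smad7 did not pass. Nedd4l, a ubiquitin ligase, fell in mutant MEF (-1.497 ± 0.089, adjusted p = 1.84e-05) and rose in sgPrrx1 MEF (0.88 ± 0.069, adjusted p = 0.000145). Tgif2, a co-repressor of Smads, gave the largest rise in mutant MEF (1.52 ± 0.11, adjusted p = 5.16e-05) and in MMTV-CAF (0.50 ± 0.037, adjusted p = 4.49e-06) and the largest fall in wound-healing fibroblasts (-0.32 ± 0.041, adjusted p = 0.000105).

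Of 24 other ligands and extracellular antagonists, 13 lower and 3 higher of 21 tested were called in mutant MEF, 11 lower and 2 higher of 19 in sgPrrx1 MEF, 13 lower and 4 higher of 21 in wound-healing fibroblasts and 8 lower and 7 higher of 17 in MMTV-CAF. The medians were -1.29, -0.88, -0.81 and -0.31, and they stayed at these values with genes absent from one group set at their bound. Some had counts in one group and none in the other. Gdf6, a BMP-family ligand, had 0 counts in WT MEF and 0.568, 0.661 and 0.616 CPM in mutant cultures, at least 46.2-fold higher against a floor of 3 counts over the group. Bmp2 was low in WT MEF, at 0.145, 0.259 and 0.437 CPM, and had 0 counts in sgPrrx1 MEF, at least 19.9-fold lower against the same floor. Gdf10, a ligand also known as BMP3b, rose in wound-healing fibroblasts from 0.142, 0.297 and 0.151 to 66.6, 64.6 and 65.8 CPM (8.39 ± 0.11, adjusted p = 1.47e-10) and fell in MMTV-CAF from 146, 151 and 148 to 17.7, 16.2 and 15.1 CPM (-3.20 ± 0.059, adjusted p = 1.49e-09). Bmp5 fell most in wound-healing fibroblasts (-4.01 ± 0.19, adjusted p = 1.68e-07), and Gdf5 rose most in MMTV-CAF, from 0.159, 0.174 and 0.332 to 6.49, 7.11 and 6.97 CPM (4.89 ± 0.20, adjusted p = 1.08e-07).

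**Figure D5:**
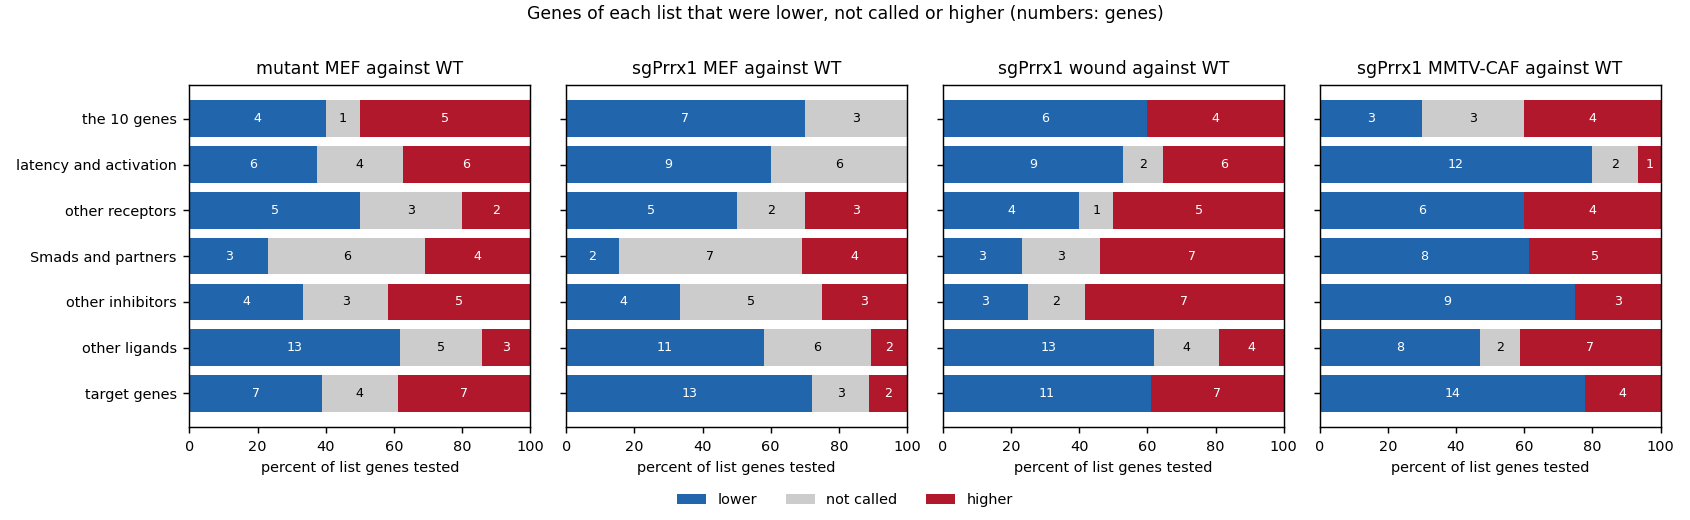
Percent of the tested genes of each list (x axis) that were lower (blue), not called (grey) or higher (red) in the 4 comparisons (panels), with the number of genes printed in each part of a bar. Lower calls outnumber higher ones among target genes in the 3 sgPrrx1 panels, with 13, 11 and 14 lower.

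For each of the 10 genes the 2 genes with the most similar pattern over the 7 group means of log2 CPM were found among 15092 others. These correlations are descriptions over 7 points that share lines and libraries. For the receptors they were Smyd3 (r = 0.98) and Hcn2 (r = 0.98) for Tgfbr1, Me1 (r = 0.94) and Mchr1 (r = 0.92) for Tgfbr2 and Noxo1 (r = 0.99) and Mrgprd (r = 0.99) for Tgfbr3. For Tgfbr2 0 genes had r above 0.95, while 161 did for Tgfbr3. The nearest to Tgfb1 were F13a1 (r = 0.97) and Gdap10 (r = 0.96), to Tgfb2 Gm5113 (r = 0.98) and Nrp1 (r = 0.96) and to Tgfb3 RAET1B (r = 0.99) and Pik3r1 (r = 0.98). Smad7 came with Prr3 (r = 0.96) and Npff (r = 0.96), Skil with Ttc25 (r = 0.98) and Ttc14 (r = 0.98), Smad3 with Dcaf11 (r = 0.99) and Fam20b (r = 0.98) and Tgfbi with Serinc5 (r = 0.98) and Atp6v0a4 (r = 0.98). The correlation with Prrx1 itself ran from -0.51 for Smad7 to 0.71 for Tgfbr3.

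The library kit did not mark strand, so reads from a gene and from one on the opposite strand cannot be told apart. In RefSeq on GRCm38.p6 other genes, all of them predicted ones with a Gm name, overlap the spans of 6 of the 10 genes, and 0 overlap Tgfb1, Tgfb3, Skil and Tgfbi.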

How the data were processed

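Count tables of bulk RNA-seq from 21 mouse fibroblast cultures, 3 per group, were used. The authors deposited whole-number read counts per gene, not scaled to library size, in 1 table for each fibroblast type. According to the submitters' processing notes, the tools were Trimmomatic for trimming, STAR for alignment, with mm10 as the genome build, and HTSeq for counting, and versions are not given there. The kit, TruSeq RNA v2, does not mark strand. The study's methods name a batch correction of counts with ComBat-seq after describing the mouse and human libraries, and do not say which of them it covered, so the deposited counts may have been adjusted. Column names of the wound-healing table give genotype and replicate, and their cell type was assigned by elimination.

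Groups came from the sample labels. Each comparison was fitted on its 6 cultures with edgeR 4.0.16 in R 4.3.3: TMM scaling, filterByExpr with a minimum count of 10, the quasi-likelihood test and Benjamini-Hochberg adjustment over all genes tested, with a threshold of 0.05. The tests of the difference between types used the 18 WT and sgPrrx1 cultures in 1 model, and the comparison of WT types the 9 WT cultures. Every adjusted p in the text is from these quasi-likelihood tests unless DESeq2 is named. Standard errors were taken from the fold change and its F statistic, and 95% intervals are 1.96 standard errors to each side. These intervals take no account of the few residual degrees of freedom, so they are narrower than the quasi-likelihood test allows. Levels for description used 1 TMM scaling over all 21 cultures, with a prior count of 2 for log2 values in correlations.

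The 10 genes and the 6 pathway lists were chosen with earlier results of these data known, so no list was given a test of its own. Named list genes were the called gene with the largest fall and the one with the largest rise of each list in each comparison. One gene that this rule names is not reported here. Where these genes are named a second time, in another comparison, their values were added for comparison. The 2 most similar patterns were ranked by Pearson correlation over the 7 group means. Of 24540 gene names 23529 matched the reference symbols.

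Alternatives were other scalings (RLE, upper quartile, library totals alone), no filter or at least 10 counts in every culture, a minimum change of 2-fold, counts halved, a replicate block, larger models, DESeq2 1.42.0 and leaving out each culture. The scripts were tested on simulated data.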

Additional observations from a re-analysis of the deposited data

Results flagged for a closer look

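For all 10 genes the change after sgPrrx1 passed a test of its difference between the 3 fibroblast types, for Skil only narrowly. This was edgeR's quasi-likelihood test over the 18 WT and sgPrrx1 cultures, with Benjamini-Hochberg adjustment over all genes tested. Among the feedback and target genes the values were Smad7 at adjusted p = 2.36e-14, Tgfbi at adjusted p = 6.36e-13 and Skil at adjusted p = 0.0391. For Skil the largest difference between a pair of types was 0.74 on the log2 scale, for wound-healing fibroblasts minus MEF. It was lost without WT MEF replicate 3 or sgPrrx1 wound-healing replicate 1, at adjusted p = 0.0589 and 0.0514. Skil did not pass for MMTV-CAF minus MEF (adjusted p = 0.0791) or MMTV-CAF minus wound-healing fibroblasts (adjusted p = 0.527). Among the receptor genes they were Tgfbr1 at adjusted p = 1.13e-07, Tgfbr2 at adjusted p = 0.000269 and Tgfbr3 at adjusted p = 2.36e-10. Among the ligand genes they were Tgfb1 at adjusted p = 2.91e-09, Tgfb2 at adjusted p = 1.79e-09 and Tgfb3 at adjusted p = 6.29e-09, with the largest difference between MMTV-CAF and wound-healing fibroblasts in each. Smad3 stood at adjusted p = 0.000143, with a largest difference of 0.37. Of all genes tested 80.1% passed this same test. With 1 culture left out, 9 of the 10 genes passed in 9 of the 18 cases and all 10 in the others.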

How the results depend on the processing

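Of the differences of the 10 genes under the alternatives that kept all cultures, 668 kept their direction and side of the threshold, 34 lost the call, 11 gained it and 17 turned direction. With a culture left out these counts were 1062, 34, 6 and 8. A fold change of at least 2 left 2 of the 10 genes called in each MEF comparison and 4 in each of the others, by its construction. Leaving out 1 culture left 4 to 6 called in sgPrrx1 MEF, with 4 without WT MEF replicate 2. The causes of the changes below were not tested.

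With library totals alone the log2 value turned to 0.06043 for Emilin1 and 0.009287 for Smad2 in mutant MEF, to 0.05257 for Bmpr1b and 0.02278 for Tsc22d1 in wound-healing fibroblasts, to 0.1255 for Smad3 in MMTV-CAF and to 0.1152 for the Smad3 difference of wound-healing fibroblasts minus MEF. In the model of all 21 cultures Emilin1 in mutant MEF was 0.0009451 and Smad3 in MMTV-CAF 0.01093. Tgfbr1 in sgPrrx1 MEF was -0.0138 with upper-quartile scaling. Tgfbr1 in WT MMTV-CAF against WT wound-healing fibroblasts was 0.006487 with RLE scaling, 0.05086 with library totals alone and 0.006892 with DESeq2. Of these turned values, both of Smad3 with library totals alone passed the threshold, at adjusted p = 0.00261 in MMTV-CAF and 0.0474 for the difference.

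With mutant MEF in place of sgPrrx1 MEF, the difference of wound-healing fibroblasts minus MEF turned to -0.5993 for Tgfb3, 0.3848 for Tgfbr1, -0.6767 for Skil and -2.266 for Tgfbi. That of MMTV-CAF minus MEF turned to 0.06254 for Tgfb1, -2.04 for Tgfb2, -0.1599 for Tgfbr2, -0.2786 for Smad3 and -0.8726 for Skil.

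With 1 culture left out at a time, log2 values that turned direction ranged in mutant MEF from -0.06738 to 0.04016 for Emilin1, from -0.1724 to 0.07061 for Smad2, from -0.06641 to 0.1534 for Dab2 and from -0.07675 to 0.2706 for Tsc22d1. In sgPrrx1 MEF they ranged from -0.1066 to 0.2042 for Tgfbr1, from -0.3323 to 0.1646 for Skil and from -0.02543 to 0.1581 for Tgif2. Nrros in wound-healing fibroblasts ranged from -0.08503 to 0.4489, Smad3 in MMTV-CAF from -0.03134 to 0.01707, and Tgfbr1 between these WT types from -0.01711 to 0.03387.

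Same-numbered cultures deviated together with correlations of -0.253 to 0.203, and in no comparison were all 3 above 0.1, so the replicate numbers were not taken as pairs. With the replicate number as a block 6 in place of 9 of the 10 genes were called in mutant MEF, where Tgfbr2, Smad3 and Tgfbi did not pass, and 7, 10 and 7 in the sgPrrx1 comparisons of MEF, wound-healing fibroblasts and MMTV-CAF, as without it. Tgfbr1 in sgPrrx1 MEF was -0.007491 with the block.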
